A study of Mus musculus with 6 samples.

Results

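The carboxylesterase 1 and 2 families were examined in RNA-seq of the colon epithelium, through 10 genes out of the 52550 listed: Ces1c, Ces1d, Ces1e, Ces1f and Ces1g of the Ces1 family, and Ces2a, Ces2b, Ces2c, Ces2e and Ces2g of the Ces2 family. The genes were chosen with the genotype difference of these same samples known, so that difference describes them and is not independent evidence about the family. The study compared colonic epithelial cells of the Zfp90 ΔIEC genotype (3 mice) with those of the Zfp90 fl/fl genotype (3 mice) in a model of colitis-associated cancer. All 6 were male C57BL/6 mice that carried floxed Zfp90 alleles, and the sample labels give an age of 6 to 8 weeks without saying at which step. In the Zfp90 ΔIEC mice, Cre under the Villin promoter, which is active along the whole intestinal epithelium, removed Zfp90, and the Zfp90 fl/fl mice were their littermates. Every mouse received 10 mg/kg of the carcinogen azoxymethane (AOM) and, after 5 days, 3 cycles of 7 days of 2% dextran sulfate sodium (DSS), a compound that injures the colon lining, each followed by 14 days of plain water, and tissue was taken on day 80. These are the values of the sample labels, and the paper's methods give a different DSS concentration and a single starting age. There was no untreated group, and no mouse with Cre alone is among the samples used here. Mice were kept apart by genotype after weaning, so cage and genotype cannot be told apart.

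Carboxylesterases are enzymes of the endoplasmic reticulum that cut ester, thioester and amide bonds. They convert many drugs and ester prodrugs, and several of them also hydrolyse triacylglycerol and other neutral lipids inside the cell. In humans the CES1 enzyme is best known from liver and CES2 from intestine, whereas the mouse carries several copies of each gene in tandem clusters. Intestinal CES2 is known for releasing the active form of the colorectal cancer drug irinotecan.

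All 10 genes lie on chromosome 8 in the GRCm38 assembly. The Ces1 genes, including the copies Ces1a, Ces1b and Ces1h, form a cluster of 359.5 kb on the minus strand, and the Ces2 genes form one of 287.2 kb on the plus strand. Between them lie 11.4 Mb, and the end of the Ces2 cluster lies 1.39 Mb before the start of Zfp90 itself, the deleted gene. Ces2a, the first gene of its cluster, spans chr8:104734003-104741634 with 12 exons, Ces2c spans chr8:104847068-104854483, Ces2e spans chr8:104926260-104934672 and Ces2g spans chr8:104961718-104969537.

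The promoters of Ces2a, Ces2c, Ces2e and Ces2g are shown because these genes are tandem copies of each other and the genotype difference of Ces2a was the largest among the 10. RefSeq (GRCm38.p6) held a promoter for 7 of the 10 genes, taken as 250 bases before the annotated start and 50 after it. The windows are chr8:104733753-104734052, chr8:104846818-104847117, chr8:104926010-104926309 and chr8:104961468-104961767, all on the plus strand and written 5′ to 3′. Capitals mark every match, on either strand, to 5 short motifs. AGGTCA is the half-site of nuclear receptors such as the xenobiotic receptor PXR. CAAAGTC is a core of the sites of HNF4, a receptor that maintains intestinal and liver genes. TATAAA is the TATA box that positions transcription starts. TGACNNNGC is the antioxidant response element. TTTATG is a core of the sites of CDX factors, which define intestinal epithelium.
Ces2a: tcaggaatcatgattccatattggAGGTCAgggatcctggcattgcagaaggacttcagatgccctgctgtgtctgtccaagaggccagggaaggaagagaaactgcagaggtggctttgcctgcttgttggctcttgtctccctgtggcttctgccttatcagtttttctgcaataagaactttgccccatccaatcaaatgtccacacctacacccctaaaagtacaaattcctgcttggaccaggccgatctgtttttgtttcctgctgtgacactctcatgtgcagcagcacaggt
Ces2c: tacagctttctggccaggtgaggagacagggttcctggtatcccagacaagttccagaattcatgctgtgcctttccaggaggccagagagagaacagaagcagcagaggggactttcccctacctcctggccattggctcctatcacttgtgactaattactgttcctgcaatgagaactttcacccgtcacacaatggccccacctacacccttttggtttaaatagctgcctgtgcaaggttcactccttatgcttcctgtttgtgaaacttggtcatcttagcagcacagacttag
Ces2e: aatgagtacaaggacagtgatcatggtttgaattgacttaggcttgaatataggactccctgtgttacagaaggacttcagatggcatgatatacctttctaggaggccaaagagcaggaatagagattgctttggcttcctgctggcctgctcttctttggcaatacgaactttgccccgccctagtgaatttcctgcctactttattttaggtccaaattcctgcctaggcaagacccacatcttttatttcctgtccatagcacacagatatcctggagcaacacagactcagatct
Ces2g: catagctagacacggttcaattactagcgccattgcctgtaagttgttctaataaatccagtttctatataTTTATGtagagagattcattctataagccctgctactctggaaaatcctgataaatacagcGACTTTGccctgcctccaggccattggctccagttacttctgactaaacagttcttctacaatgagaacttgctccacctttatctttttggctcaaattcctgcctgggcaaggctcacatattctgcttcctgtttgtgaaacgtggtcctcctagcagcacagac
Ces2a alone among the 7 promoters held the half-site AGGTCA, at position -226 from the start on the plus strand, and 16.3% of 32851 mouse promoters of this length held it too. Ces2g held CAAAGTC at -118 on the minus strand, read as GACTTTG in the printed strand, and TTTATG at -179. CAAAGTC occurred in 4.44% of all promoters and TTTATG in 11.9%. Ces2c and Ces2e held none of the 5 motifs. Among the Ces1 promoters, those of Ces1c, Ces1e and Ces1g each held TTTATG. That of Ces1g also held TATAAA at -26, but on the strand opposite to the gene, whose own strand reads TTTATA there. TATAAA was found in 13.6% of promoters. TGACNNNGC was found in 12.4% of all promoters and in none of the 7. These matches describe letters in a window and were not tested as binding sites.

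Zfp90 itself, the deleted gene, was low in all samples and lower in Zfp90 ΔIEC. The 3 control mice, in replicate order, had 0.630, 0.490 and 0.569 FPKM, a level of fragments scaled by transcript length and by sequencing depth, and the 3 Zfp90 ΔIEC mice had 0.0846, 0.195 and 0.166 FPKM. The groups did not overlap, although the gene lay below the filter of 1 FPKM in 3 samples that was set for testing. The epithelial gene Vil1 stood between 209.6 and 255.7 FPKM in all 6 samples. The liver gene Alb was at most 0.678 FPKM and the fat cell gene Adipoq at most 0.387 FPKM, and both cell types are known for carboxylesterase expression. An estimate of depth from the steps between low values gave 25.7 to 28.65 M fragments a sample, with only 46.9% to 51.5% of the values within 0.1 of a whole step, so it is approximate.

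The colon epithelium contained 9 of the 10 carboxylesterases above the filter, spread over a wide range of levels. In Zfp90 fl/fl mice, the most abundant were Ces2e, known as a pyrethroid hydrolase, with 81.2 ± 1.47 FPKM (SD, n = 3), and Ces2c, a drug-metabolising and acylglycerol-hydrolysing enzyme of the intestine, with 73.0 ± 4.99 FPKM. Ces1g, a lipid-metabolising esterase also known as Es-x, followed with 56.3 ± 6.30 FPKM. Below them stood Ces1f, Ces1d, Ces2a, Ces1e, Ces2g, Ces2b and Ces1c in that order, down to 0.276 ± 0.0893 FPKM for Ces1c, known as an esterase of blood plasma. No neighbours in this order overlapped in their 3 values.
In Zfp90 ΔIEC mice the order was less separated. Ces2c led with 90.2 ± 7.92 FPKM, but its range overlapped that of Ces2e (77.9 ± 11.3 FPKM). Ces1g and Ces1f overlapped at 46.1 ± 8.08 and 45.9 ± 5.33 FPKM. Ces2a came next and overlapped Ces1d, while Ces1e, Ces2g, Ces2b and Ces1c kept their places at the lower end.

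**Figure D1:**
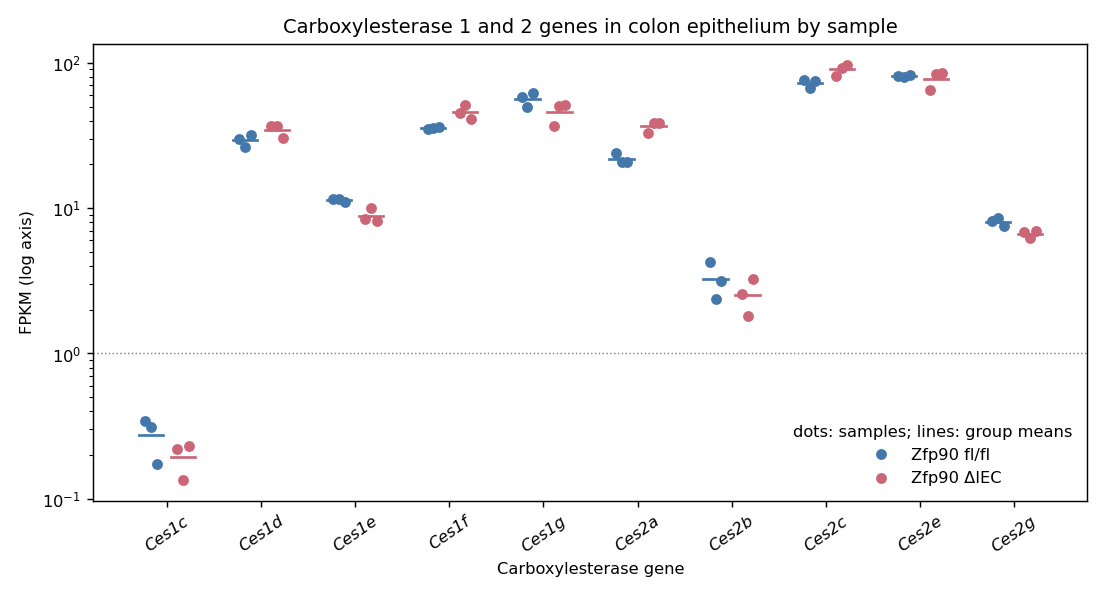
FPKM of the 10 carboxylesterase genes on a log axis, with a dot for each sample (blue for Zfp90 fl/fl, red for Zfp90 ΔIEC, n = 3 each), a line at each group mean and a dotted line at 1 FPKM. Ces2a stands between 20.7 and 24.1 FPKM in Zfp90 fl/fl and between 33.1 and 38.5 FPKM in Zfp90 ΔIEC, and Ces1c lies below 1 FPKM in all 6 samples.

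Ces2a was the carboxylesterase with the largest difference between genotypes. Ces2a is an acylglycerol hydrolase best known from liver. It measured, in order, 24.1, 20.8 and 20.7 FPKM in Zfp90 fl/fl mice 1 to 3 and 33.1, 38.5 and 38.4 FPKM in Zfp90 ΔIEC mice 1 to 3. All 3 Zfp90 ΔIEC samples lay above all 3 controls, with means of 21.9 ± 1.90 and 36.6 ± 3.10 FPKM (SD, n = 3) and a ratio of 1.68. The log2 fold change of FPKM + 1 was 0.72 (SE 0.0879, limma adjusted p = 0.0434 by the Benjamini-Hochberg method over 11564 genes), which just passed the threshold of 0.05. The call was lost in 9 of 13 alternative settings, where the adjusted p ran up to 0.153, while the log2 fold change stayed between 0.68 and 0.79.

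Ces2c, a relative of Ces2a in the same cluster, was also higher in Zfp90 ΔIEC but did not pass the test. It measured 76.6, 67.3 and 75.01 FPKM in Zfp90 fl/fl and 81.5, 92.0 and 97.0 FPKM in Zfp90 ΔIEC. The groups did not overlap, and the log2 fold change was 0.30 (SE 0.0845). The nearest samples of the 2 genotypes were those at 76.6 and 81.5 FPKM. Zfp90 ΔIEC replicate 1 was the lowest of its group for Ces2a, Ces2c, Ces2e and Ces1g.

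The means of Ces2e, Ces2g and Ces2b were lower in Zfp90 ΔIEC, and none of them passed the test. Ces2e measured 80.9, 79.9 and 82.8 FPKM in Zfp90 fl/fl and 64.9, 83.5 and 85.2 FPKM in Zfp90 ΔIEC, with a log2 fold change of -0.07 (SE 0.106) that became 0.05 without Zfp90 ΔIEC replicate 1. Ces2g measured 8.17, 8.58 and 7.52 FPKM in Zfp90 fl/fl and 6.80, 6.27 and 6.92 FPKM in Zfp90 ΔIEC. The Ces2g groups did not overlap and Zfp90 ΔIEC was the lower, with a log2 fold change of -0.25 (SE 0.0687). Ces2b measured 4.26, 2.35 and 3.15 FPKM against 2.58, 1.80 and 3.25 FPKM, and its groups overlapped.

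The Ces1 genes also lay on both sides of 0, and none passed the test. Ces1f, a triacylglycerol hydrolase, measured 34.9, 35.7 and 36.2 FPKM in Zfp90 fl/fl and 45.5, 51.4 and 40.8 FPKM in Zfp90 ΔIEC, with a log2 fold change of 0.35 (SE 0.0862, adjusted p = 0.137, limma). Ces1e, known as egasyn for its binding of β-glucuronidase in the endoplasmic reticulum, measured 11.5, 11.5 and 11.1 FPKM against 8.45, 9.99 and 8.13 FPKM, with a log2 fold change of -0.33 (SE 0.0803, adjusted p = 0.134, limma). The groups overlapped for neither gene, with Ces1f the higher and Ces1e the lower in Zfp90 ΔIEC.
Ces1d, the triacylglycerol hydrolase of liver and fat, measured 30.02, 26.4 and 32.0 FPKM against 36.7, 36.5 and 30.3 FPKM. Ces1g measured 58.0, 49.4 and 61.6 FPKM against 36.7, 50.6 and 50.9 FPKM. Both overlapped between genotypes, with log2 fold changes of 0.22 (SE 0.101) for Ces1d and -0.29 (SE 0.143) for Ces1g. Ces1c, at between 0.135 and 0.342 FPKM, rested on an estimated 7.05 to 16.1 fragments a sample, and its groups overlapped.

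Counted over the family, 9 of 10 genes passed the filter on low values, 1 was called at an adjusted p under 0.05 (Ces2a, higher in Zfp90 ΔIEC), and 5 had an unadjusted p under 0.05. Over all 11564 genes tested, 0.199% were called, 0.0692% were called as higher in Zfp90 ΔIEC, and 14.6% had an unadjusted p under 0.05. The groups did not overlap for 5 of the 9, of which 3 were higher (Ces1f, Ces2a, Ces2c) and 2 lower (Ces1e, Ces2g) in Zfp90 ΔIEC, beside 21.3% of all genes in either direction. Since the 10 genes were chosen by their values in this contrast, nothing is read from these counts. The log2 fold change was above 0 for 4 and below 0 for 5 of the 9, with a median of -0.07 against -0.02 over all genes tested.

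**Figure D2:**
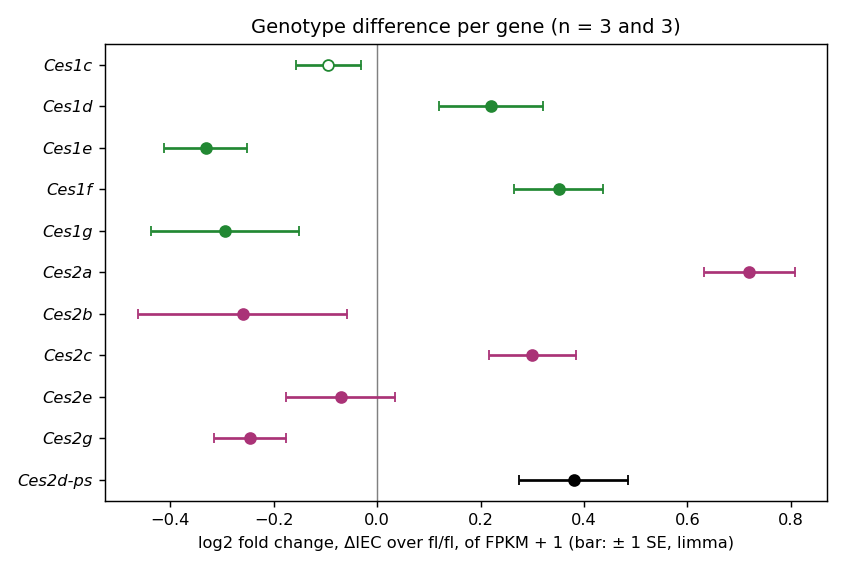
Log2 fold change of FPKM + 1 in Zfp90 ΔIEC over Zfp90 fl/fl (x axis) for each carboxylesterase gene and the pseudogene Ces2d-ps (y axis), with bars of 1 SE from limma, n = 3 and 3. Green marks Ces1 genes, purple Ces2 genes, black the pseudogene and an open circle the gene below the filter. Ces2a stands farthest from 0 at 0.72, and Ces1e is the lowest at -0.33.

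The summed level of each family overlapped between genotypes, and the shares of single genes in the sums are given as a description. The Ces1 sum was 134.8, 123.3 and 141.1 FPKM in Zfp90 fl/fl and 127.5, 148.6 and 130.4 FPKM in Zfp90 ΔIEC, with means of 133 ± 9.04 and 136 ± 11.4 FPKM (SD, n = 3). The Ces2 sum was 194.0, 179.0 and 189.2 FPKM against 188.8, 222.1 and 230.7 FPKM, with means of 187 ± 7.69 and 214 ± 22.1 FPKM. Zfp90 ΔIEC replicate 1 was the lowest of its group in both. Without Ces2a, the Ces2 sum was 166 ± 6.42 and 177 ± 19.1 FPKM. The log2 ratio of the Ces2 sum to the Ces1 sum was 0.53, 0.54 and 0.42 in Zfp90 fl/fl and 0.57, 0.58 and 0.82 in Zfp90 ΔIEC, which did not overlap but came as close as 0.54 and 0.57. No p is given for sums or shares of genes chosen on this contrast, and an exact permutation test of 3 against 3 samples cannot go below 0.1.

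Within the Ces2 sum, Ces2a made up 12.4%, 11.6% and 11.0% in Zfp90 fl/fl and 17.5%, 17.3% and 16.6% in Zfp90 ΔIEC, a difference of 5.50 percentage points between means of 11.7% ± 0.723 and 17.2% ± 0.466 (SD, n = 3). Ces2c also took a larger share, with 38.9% ± 1.14 in Zfp90 fl/fl and 42.2% ± 0.883 in Zfp90 ΔIEC. The share of Ces2e was 43.4% ± 1.53 and 36.3% ± 1.71, and that of Ces2g 4.33% ± 0.423 and 3.14% ± 0.409. Ces2e was thus the largest part of the Ces2 sum in every Zfp90 fl/fl sample and Ces2c in every Zfp90 ΔIEC sample.
Within the Ces1 sum, Ces1f held 26.9% ± 1.86 in Zfp90 fl/fl and 33.8% ± 2.28 in Zfp90 ΔIEC, and Ces1d held 22.1% ± 0.666 and 25.5% ± 2.86. Ces1g, the largest part in Zfp90 fl/fl, held 42.3% ± 1.93 and 33.9% ± 5.11, and Ces1e held 8.57% ± 0.734 and 6.53% ± 0.256. Of the 10 shares, 8 did not overlap between genotypes, 4 being higher and 4 lower in Zfp90 ΔIEC. Among the levels of all genes tested, 21.3% did not overlap. Since the genes were chosen on this contrast, nothing is read from this count. Shares of a sum are tied to each other, since a larger part for one gene leaves a smaller part for the rest.

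**Figure D3:**
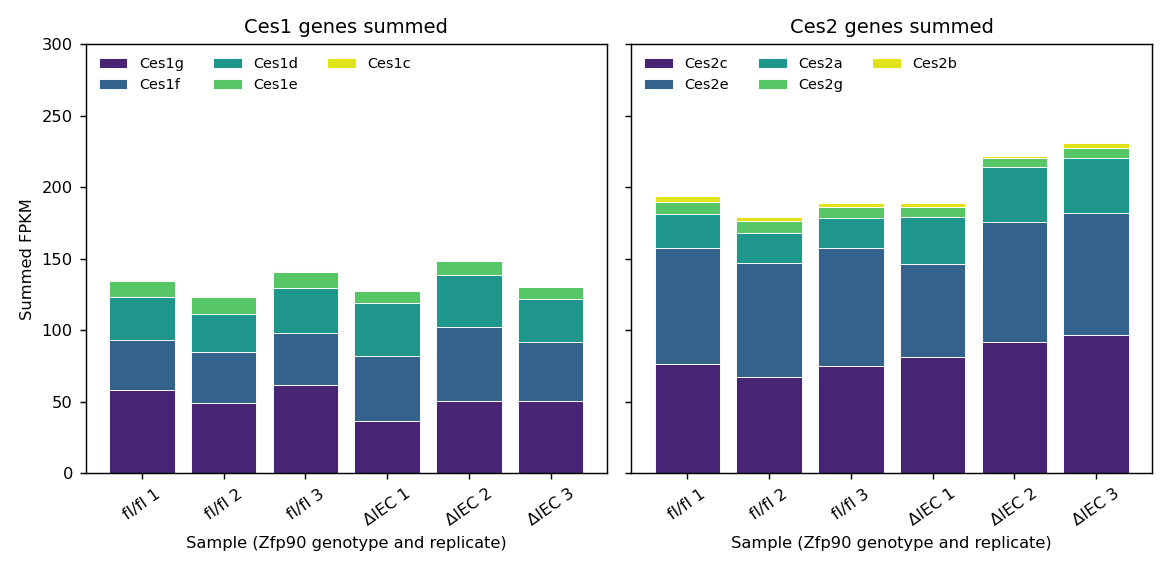
Summed FPKM (y axis, from 0) of the Ces1 genes (left) and Ces2 genes (right) in each of the 6 samples, each bar divided by gene. The Ces1 bars reach 123.3 to 148.6 FPKM with no separation of genotypes, while the Ces2a segment is 20.7 to 24.1 FPKM in Zfp90 fl/fl and 33.1 to 38.5 FPKM in Zfp90 ΔIEC.

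The genes of both families are close copies, which bears on how fragments were assigned to them. Aligned transcripts of the 5 Ces1 genes were identical at 80.3% to 84.0% of aligned bases, those of the 5 Ces2 genes at 83.2% to 92.4%, with Ces2b and Ces2c the closest pair, and genes of different families at 76.3% to 79.2%. Ces2d-ps, a pseudogene of the Ces2 cluster at chr8:104867488-104873861, was 97.8% identical to Ces2c. For Ces2c, 25.9% of all stretches of 75 bases, and 3.35% of those of 150 bases (the read length), occurred in another annotated transcript, mostly that of Ces2d-ps. For Ces2a the values were 14.8% and 4.03%, all shared with the pseudogene Gm7208. No stretch of 150 bases was shared for the other 8 genes, and Ces1d, Ces1f and Ces1g shared none of 75 bases either.
Ces2d-ps was listed at 4.01, 4.61 and 4.53 FPKM in Zfp90 fl/fl and at 5.01, 6.45 and 6.65 FPKM in Zfp90 ΔIEC, and its groups did not overlap and lay in the same order as those of Ces2c, with a log2 fold change of 0.38 (SE 0.106, adjusted p = 0.183, limma). Gm7208 was at most 0.156 FPKM, against at least 20.7 FPKM for Ces2a. The sources name different programs for mapping and quantification, so how fragments that fit both copies were divided is not settled by them, and Ces2c and Ces2d-ps are uncertain as separate values. Its part in the Ces2c difference was not tested. The only other annotated gene that overlaps one of the 10 is Gm45909, inside Ces1d on the same strand, at no more than 0.243 FPKM.

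**Figure D4:**
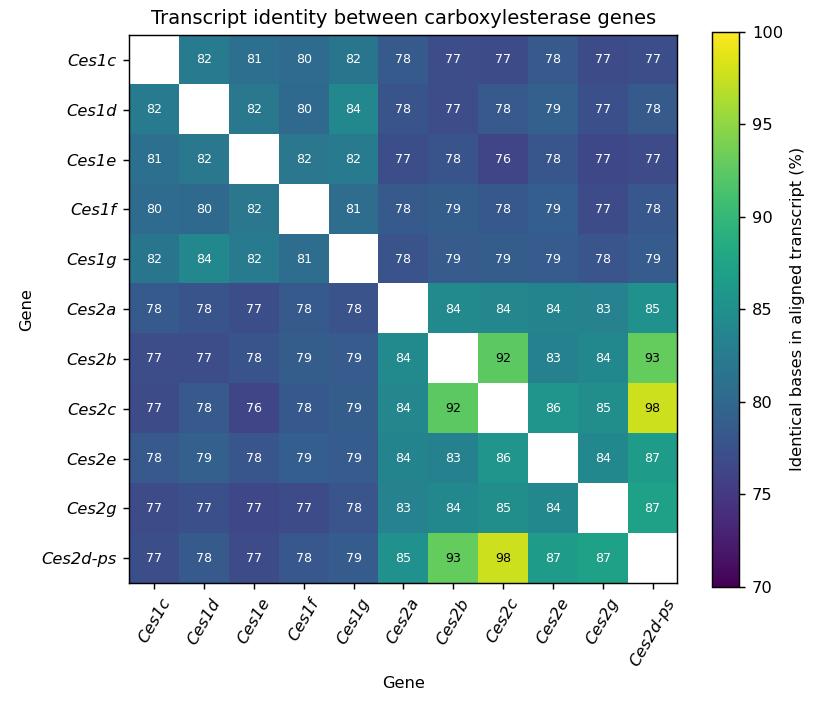
Percentage of identical bases in pairwise alignments of the longest annotated transcripts of the 10 carboxylesterase genes and Ces2d-ps (both axes), written in each cell and shown by colour. Values within a family exceed those between families, with 76.3% to 79.2% between Ces1 and Ces2 genes and 97.8% for Ces2c and Ces2d-ps.

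The other carboxylesterase genes of the mouse were hardly present. Of 10 further genes named Ces, Ces2d-ps alone passed the filter. Ces1a, Ces1b, Ces1h, Ces2f, Ces2h, Ces3a and Ces3b stayed below 1 FPKM in every sample, and the highest of them was Ces1b at 0.682 FPKM. Ces4a and Ces5a were listed at 0 in all 6 samples.

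Genes beside the clusters are given as a description. Over all genes tested, 0.199% were called and 14.6% had an unadjusted p under 0.05 in limma. With so few neighbours, 0 calls cannot set them apart from other genes. Within 250 kb of the Ces2 cluster, 8 other genes were tested in limma, with 0 called, 1 at an unadjusted p under 0.05 (B3gnt9, a glycosyltransferase gene, at 0.39, adjusted p = 0.249) and a median log2 fold change of -0.03. The nearest tested genes were Ciao2b, 92.0 kb before the Ces2 cluster, with a log2 fold change of 0.05, and Cbfb, 149 kb after it, with -0.11. Between the Ces2 cluster and Zfp90, 38 genes were tested, none was called and 7 had an unadjusted p under 0.05, with log2 fold changes between -0.34 (Hsd11b2) and 0.52 (Tppp3). Ces2a, at 0.72, lay above the highest of them, but it was chosen with this contrast known and the neighbours were not, so nothing is read from this.
The Ces1 cluster had 1 tested gene within 250 kb, Lpcat2, with a log2 fold change of -0.08. In the window of 1 Mb, 1 of 9 tested genes near the Ces1 cluster was called, the metallothionein gene Mt1 with a log2 fold change of 2.74, and 0 of 37 near the Ces2 cluster, where 5 had an unadjusted p under 0.05.

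**Figure D5:**
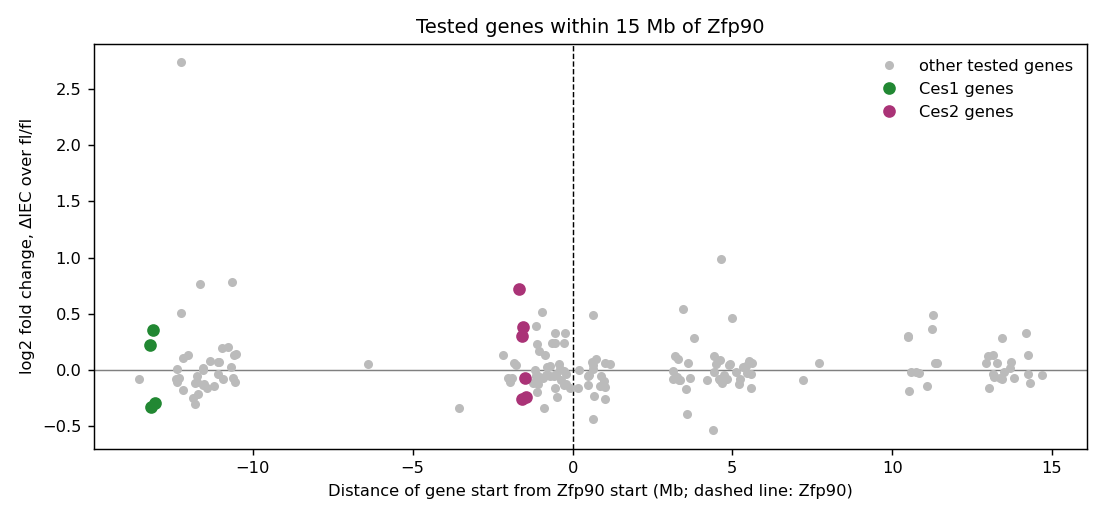
Log2 fold change in Zfp90 ΔIEC over Zfp90 fl/fl (y axis) of the tested genes whose start lies within 15 Mb of the start of Zfp90 (x axis, Mb, dashed line at Zfp90), with Ces1 genes in green, Ces2 genes including Ces2d-ps in purple and other genes in grey. Ces2a, chosen with this contrast known, stands at 0.72, above the 38 genes tested between its cluster and Zfp90. Mt1 near the Ces1 cluster reaches 2.74.

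Among enzymes with related work, 28 other esterases and lipid hydrolases were listed, of which 26 were tested and none was called, with a median log2 fold change of 0.00 and 4 at an unadjusted p under 0.05. The largest values were those of Nceh1, a neutral cholesterol ester hydrolase, at 0.55 (adjusted p = 0.0927, limma), Ppt1, a lysosomal thioesterase, at -0.24, and Bche, butyrylcholinesterase, at -0.24. Nceh1 measured 8.67, 7.65 and 9.09 FPKM in Zfp90 fl/fl and 14.8, 11.4 and 12.5 FPKM in Zfp90 ΔIEC, without overlap. Of 26 genes of triacylglycerol synthesis and lipoprotein assembly, 19 were tested and none was called, with a median of 0.03 and 3 at an unadjusted p under 0.05. Fabp2, the intestinal fatty acid binding protein, measured 167.8, 205.4 and 181.1 FPKM against 275.1, 455.9 and 331.3 FPKM, with a log2 fold change of 0.91 (adjusted p = 0.0995, limma). Agpat2, an acyltransferase of triacylglycerol synthesis, had a log2 fold change of -0.82 and Cidec, a lipid droplet protein, of 0.53, and neither passed the test.

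Receptors and transcription factors known to control carboxylesterase genes were measured next, since PXR, FXR and their relatives respond to drugs, bile acids and lipids. Of 23 listed, 21 were tested and none was called by limma, with 1 at an unadjusted p under 0.05 and a median log2 fold change of -0.05. The value was below 0 for 16 of the 21, beside 6613 of all 11564 genes tested. The largest were Nr1h4, the bile acid receptor FXR, at -0.30, Ahr, the aryl hydrocarbon receptor, at -0.24, and Nr1h3, the oxysterol receptor LXRα, at -0.19. Nr1i2, the xenobiotic receptor PXR that is known to induce Ces2a, was singled out after its values were seen. It stood between 38.1 and 40.3 FPKM in Zfp90 fl/fl and between 37.1 and 40.0 FPKM in Zfp90 ΔIEC, and its groups overlapped.

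Genes that varied most like the carboxylesterases over the 6 samples were taken by Pearson's r of log2(FPKM + 1), as a description over both genotypes pooled. For Ces2a, 218 of 11563 genes had an r above 0.9, led by Rab11fip4 (r = 0.99), Tom1l2, Abcb1a, Pbk and Gtse1. Abcb1a, which encodes the drug efflux pump P-glycoprotein, measured 56.3, 44.4 and 46.0 FPKM in Zfp90 fl/fl and 86.3, 118 and 96.8 FPKM in Zfp90 ΔIEC. Its groups did not overlap, with a log2 fold change of 1.02 (adjusted p = 0.0547, limma). For Ces2c, 139 genes passed 0.9, led by Neil3, Incenp, Ankrd9, Ptma and Cdk5rap2, and for Ces1g 108, led by Poldip2, Cisd2, Hist2h3c1, F2rl1 and Gskip. Among the 9 carboxylesterases themselves, r of Ces2a was 0.93 with Ces2c, 0.84 with Ces1f and 0.62 with Ces1d. It was -0.09 with Ces2e, -0.35 with Ces2b, -0.47 with Ces1g, -0.82 with Ces1e and -0.87 with Ces2g. All these values share the same 6 libraries, and they carry the genotype difference on which the carboxylesterases were chosen.

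The summed markers of epithelial cell types differed between genotypes as well. In bulk samples, fewer cells of a type and less RNA per cell cannot be told apart. The 14 mature colonocyte markers, all tested, summed to between 10476 and 12257 FPKM in Zfp90 fl/fl and between 12342 and 16440 FPKM in Zfp90 ΔIEC, with a median log2 fold change of 0.19 and none called. Car1, the colonocyte carbonic anhydrase that makes up much of that sum, had a log2 fold change of 0.73 (adjusted p = 0.162, limma). Its mean was 4706 FPKM in Zfp90 fl/fl and 7871 FPKM in Zfp90 ΔIEC. Lypd8, the next largest part, averaged 4506 FPKM in Zfp90 fl/fl and 4019 FPKM in Zfp90 ΔIEC, and its groups overlapped. Slc37a2 had a log2 fold change of 0.85 and Ms4a12 of -0.60. Of the 14 markers, 11 lay above 0 and 3 below. The 7 goblet cell markers summed to 2061 to 2508 FPKM and 2680 to 3601 FPKM, with a median of 0.31, none called, and Muc2 at 0.57, Zg16 at 0.52 and Agr2 at 0.46. All 7 lay above 0, but Clca1, Fcgbp, Spink4 and Tff3 overlapped between genotypes. The highest goblet sum was that of Zfp90 ΔIEC replicate 1. In Zfp90 ΔIEC mice 1 to 3, Muc2 measured 1010, 593 and 465 FPKM, and Agr2 1026.5, 711 and 633 FPKM. The 10 crypt base and cycling markers summed to 101.0 to 111.2 FPKM and 122.9 to 130.5 FPKM, and of the 7 tested Mki67, a marker of dividing cells, was called at 0.41 (adjusted p = 0.0478, limma), a call lost in 11 of 13 alternative settings. The other tested cycling genes, Top2a at 0.31, Pcna at 0.20, Mcm5 at 0.28 and Ccnb1 at 0.40, had no overlap and were higher in Zfp90 ΔIEC without passing the test. The crypt base markers overlapped between genotypes, with Axin2 at -0.31 and Smoc2 at -0.03, and Lgr5, Ascl2 and Olfm4 below the filter. None of these 3 sums overlapped between genotypes, and all were higher in Zfp90 ΔIEC. Of all single genes tested, 21.3% did not overlap in either direction. The colonocyte sums came as close as 12257 and 12342 FPKM, with Car1 the main part of their difference.
The 7 macrophage markers summed to 30.02 to 33.8 FPKM in Zfp90 fl/fl and 18.2 to 20.1 FPKM in Zfp90 ΔIEC, most of it Cd14, which fell with a log2 fold change of -0.84 (adjusted p = 0.0219, limma), whereas T cell markers summed to at most 2.63 FPKM in any sample. The 5 neutrophil markers summed to between 21.9 and 47.1 FPKM, nearly all of it Ly6g, and the sum overlapped between genotypes. Of the others, S100a8 and S100a9, which encode the calprotectin subunits, were at 0.236 to 0.466 and 0.476 to 1.62 FPKM in Zfp90 fl/fl. Both were listed at 0 in every Zfp90 ΔIEC sample, and neither passed the test (adjusted p = 0.156 and 0.232, limma without the filter). Csf3r, the receptor of the neutrophil growth factor G-CSF, was at 0.260 to 0.277 FPKM in Zfp90 fl/fl and at 0, 0 and 0.0180 FPKM in Zfp90 ΔIEC (adjusted p = 0.0177, limma without the filter), and Mpo was near 0 throughout. These neutrophil genes were named after their values were seen. B and plasma cell markers summed to 0.673 to 0.989 FPKM in Zfp90 fl/fl and to 0.123 to 0.263 FPKM in Zfp90 ΔIEC. Endothelial markers summed to 0.197 to 0.321 FPKM and 0.436 to 0.489 FPKM, nearly all of it Pecam1. The other endothelial markers, Cdh5, Kdr and Tie1, were near 0 throughout. Both sums separated the genotypes, the first lower and the second higher in Zfp90 ΔIEC, at levels under the filter. Fibroblast and smooth muscle markers summed to at most 1.00 FPKM. The 6 hepatocyte markers summed to between 11.9 and 19.3 FPKM, nearly all of it Ttr, and overlapped between genotypes, and the adipocyte markers summed to at most 2.04 FPKM. The part of these cell markers in the carboxylesterase differences was not tested.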

How the data were processed

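RNA-seq of colon epithelium, stripped with EDTA and DTT from tumour-bearing colons, was analysed in 3 Zfp90 fl/fl and 3 Zfp90 ΔIEC samples, grouped by their titles since the genotype field of 2 samples names another gene number. The authors deposited one FPKM value per gene in a file per sample, without naming the unit. The sources disagree on its making: the submitters' processing notes name STAR 2.5, Cuffnorm and DESeq 1.22.1 with mm9, and the paper's methods name TopHat, Cuffdiff and a human genome, while the identifiers are mouse Ensembl genes, of which 52403 of 52550 had a symbol. Libraries were stranded and read as pairs of 150 bases. Positions and transcripts come from the GENCODE annotation of GRCm38.

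Values were taken as log2(FPKM + 1). The test covered the 11564 genes that reached 1 FPKM in 3 or more samples, in limma 3.58.1 in R 4.3.3, with an intensity trend and Benjamini-Hochberg adjustment, at a threshold of 0.05. Genes below the filter take their values from the same fit without it. The script was tested on simulated data. Sums and shares were computed with Python 3.11.15, pandas 2.3.3 and numpy 2.4.6, and transcripts were aligned with Biopython 1.88 globally with free end gaps, counting identical bases among aligned pairs. The deposited values carry no depth, and the estimated fragments describe counting error only. Nothing states that the samples of a group were collected on separate occasions, so p-values measure the spread between these mice.

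The 10 genes and all lists were chosen with earlier results of these data known. Named genes are the 10, the other Ces genes and Zfp90, the called genes of each list or else its 3 largest differences, called and nearest neighbours of each cluster, and the 5 genes most like Ces2a, Ces2c and Ces1g. The shares other than that of Ces2a, the levels of Nr1i2 and of single neutrophil and crypt markers, and the 150-base stretches, were added after values were seen. Alternatives were a pseudocount of 0.1, no filter, a filter of 0.1 FPKM, quantile and median ratio scaling, no trend, a replicate block and leaving out each sample, and, for sums, shares and neighbours, all annotated genes of a family, estimated fragments and a window of 1 Mb. Replicate numbers come from the labels. The correlations of same-numbered samples were 0.19, 0.11 and 0.08, so the numbers were not taken to pair the mice.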

Additional observations from a re-analysis of the deposited data

How the results depend on the processing

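Over 13 alternatives, the 10 carboxylesterase genes gave 130 values, of which 120 kept both direction and side of the threshold. Ces2a lost its call in 9, always with a positive log2 fold change, so that 0 Ces2 genes were called without the trend, without a filter, with a pseudocount of 0.1, with the replicate block (adjusted p = 0.0883, limma) and without any one of 5 samples (all but Zfp90 ΔIEC replicate 1), with adjusted p between 0.0506 and 0.153 in limma. It kept the call in 4, with adjusted p between 0.0419 and 0.0497. Ces2e ran from -0.140 to 0.0540 with a sample left out, the highest without Zfp90 ΔIEC replicate 1. The log2 ratio of the Ces1 sums ran from -0.0448 (without Zfp90 ΔIEC replicate 2) to 0.0710 across samples left out, with -0.0254 without Zfp90 fl/fl replicate 2. The number of genes called, 23, became 15 without a filter, 13 with a pseudocount of 0.1, 47 with the replicate block and 10 to 21 with a sample left out, lowest without Zfp90 fl/fl replicate 2. Crypt base and cycling markers fell from 1 call to 0 without the trend, without a filter, with a pseudocount of 0.1, after quantile normalization, with the replicate block and without any one sample. The mature colonocyte markers had 3 calls with the replicate block, and 1 neighbour gene was called in the window of 1 Mb against 0 in that of 250 kb. The cause of these changes was not tested. Ces1c, at an estimated 7.05 to 16.1 fragments a sample, had the least depth behind it of the 10 genes.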
